A study of Mus musculus with 12 samples.

Results

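Potassium channel genes of the mouse retina were followed across retinal cell classes, across an oxygen-induced retinopathy and across 2 postnatal days. The members were all rows whose symbol, in upper case, starts with KCN, then A to V and a number, with the exception of Kcnj8 and Kcnj10. This gave 91 of 21408 rows. Of these, 86 are channel genes with their accessory subunits, and 5 are rows of the non-coding RNA Kcnq1ot1. Single cells were profiled by Drop-seq, in which a bead captures the RNA of 1 cell by its 3' tail and each captured molecule is counted by its unique molecular identifier (UMI). All pups were of strain C57B6 and came from postnatal day 14 (P14) or 17 (P17). Control pups (NORM) stayed with their own mother in normal air. Pups with oxygen-induced retinopathy (OIR) breathed 75% oxygen between day 7 and day 12, nursed by a foster mother, before going back to normal air, so the foster mother and the oxygen cannot be told apart. Retinas were used whole or depleted of rods. NORM had 1 library at each day and fraction. For OIR, 3 libraries of whole retina and 2 of rod-depleted retina came from P14, and 2 of whole retina and 1 of rod-depleted retina from P17. Whether libraries stand for separate animals is not in the labels, and the spread behind each p-value may therefore be technical.

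Potassium channels set the resting potential of a cell and end its depolarisations. Voltage-gated (Kv) channels are built from pore subunits, and silent Kv subunits form no channel alone but change the gating of the pore subunits they join. Cytosolic (Kvβ, KChIP) and membrane (KCNE) accessory subunits tune these pores. KCNQ and EAG-type channels work near the resting potential, and BK channels (Kcnma1) open on calcium and voltage together. Inward rectifiers and two-pore-domain channels carry the resting conductance. In the retina, Kv channels of photoreceptors shape the light response, while Müller glia take up the potassium that active neurons release.

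The stretches of sequence before annotated starts are shown for 2 members: Kcne2 for its class pattern, and Kcnj9 for a motif match. Kcne2 was carried by cone-like and rod bipolar-like cells and has 2 annotated starts, which 3' counts cannot tell apart. Among the 69 members with a promoter entry, Kcnj9 was the only one whose 250 bases before a start hold TAATCC on either strand. The match reads GGATTA here and is written in capitals. Another 22 members, Kcnv2 and Kcnj14 among them, had no entry and were not searched. TAATCC is the core of the sites bound by CRX and OTX2, transcription factors of photoreceptors and bipolar cells. It was found in 6.25% of 32851 mouse promoters of the same length, and in 1 of 94 promoters (1.06%) that belong to the 69 members with an entry. A match describes the letters and not a bound site, and Kcnj9 was spread over several classes. The sequences are RefSeq's for GRCm38.p6 and are written 5' to 3' on the gene's strand.
Kcnj9, chr1:172329323-172329572, minus strand: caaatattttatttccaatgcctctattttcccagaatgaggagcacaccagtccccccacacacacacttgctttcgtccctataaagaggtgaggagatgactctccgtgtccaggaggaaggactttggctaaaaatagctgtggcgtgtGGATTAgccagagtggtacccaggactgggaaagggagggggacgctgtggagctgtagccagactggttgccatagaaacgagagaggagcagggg
Kcne2, first start, chr16:92292139-92292388, plus strand: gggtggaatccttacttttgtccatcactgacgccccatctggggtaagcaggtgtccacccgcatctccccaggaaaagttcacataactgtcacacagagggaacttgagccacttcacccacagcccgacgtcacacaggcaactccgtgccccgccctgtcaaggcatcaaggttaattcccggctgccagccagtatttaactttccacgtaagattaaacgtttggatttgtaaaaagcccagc
Kcne2, second start, chr16:92295366-92295615, plus strand: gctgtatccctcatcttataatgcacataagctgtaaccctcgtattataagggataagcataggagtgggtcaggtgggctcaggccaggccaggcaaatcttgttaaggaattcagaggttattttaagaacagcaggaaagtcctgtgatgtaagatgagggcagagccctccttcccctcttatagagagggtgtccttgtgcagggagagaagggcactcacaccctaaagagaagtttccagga

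The 12 libraries held 25472 cells, of which 24772 had at least 200 detected genes. A median cell held 304.5 UMIs in the NORM whole-retina library at P17, the shallowest, and 1710 and 1794 in the OIR whole-retina libraries at P17. At P17, oxygen and depth therefore cannot be told apart in whole retina. The NORM whole-retina library at P14 was matched by its group name, since its columns carry the replicate number 8, which its label does not. The 24772 cells fell into 28 clusters, which were made without any KCN gene among the genes used to cluster, and 27 of them took a class from marker genes. Classes are written X-like. For the 10 classes in the order below that have a marker list of their own name, its summed level was lowest in cone bipolar-like cells, at 24.0 to 45.2 per 10000 UMIs over 12 libraries. A lens-like cluster of 869 cells, found only in OIR whole-retina replicates 2 and 3 at P14, was left out of the class order because its 8 rod markers summed to 472 and 447 per 10000, beside 488 and 422 in the rod-like cells of the same libraries. Its lens markers summed to only 25.7 to 32.5 per 10000. The cluster held 504 and 365 cells in replicates 2 and 3, beside 317 and 178 rod-like cells there. The lens-like cells do not enter the rod-like levels below. They carried rod members alongside, with Kcnj14 at 2.02 and 2.42 and Kcnv2 at 2.91 and 1.84 per 10000. Levels below are means of normalised cells in a library, in UMIs per 10000, given as mean ± SD over libraries with at least 20 cells of the class.

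The members split the retina by class. At a threshold of 0.5 per 10000, 41 members were used by at least 1 of 12 classes and 50 stayed below it in all 12. For those 41, the class with the highest mean was amacrine-like for 10, ganglion-like for 8, rod bipolar-like and cone bipolar-like for 5 each, rod-like and pericyte-like for 3 each, cone-like and astrocyte-like for 2 each, and Müller-like, endothelial-like and horizontal-like for 1 each. No member reached the threshold in microglia- or macrophage-like cells. Levels were also summed over the 86 members other than rows of Kcnq1ot1. The sum was 30.5 ± 3.40 in cone-like cells (SD, n = 12) and 27.9 ± 2.51 in amacrine-like cells (n = 12). It was 26.8 ± 4.43 in ganglion-like cells (n = 8) and 4.26 ± 1.70 in endothelial-like cells (n = 5). Kcne2 alone gave 17.5 of the sum in cone-like cells, where 7 members reached 0.5, beside 23 in amacrine-like cells. For 6 members every library of the leading class lay above every library of the second class, namely Kcne2, Kcnj14, Kcnk1, Kcnmb4, Kcne4 and Kcnmb1. The other 35 overlapped with their second class in at least 1 library. Among lists by role, 10 of 12 Kv accessory subunits and 9 of 16 Kv pore subunits passed 0.5 per 10000 in some class.

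**Figure D1:**
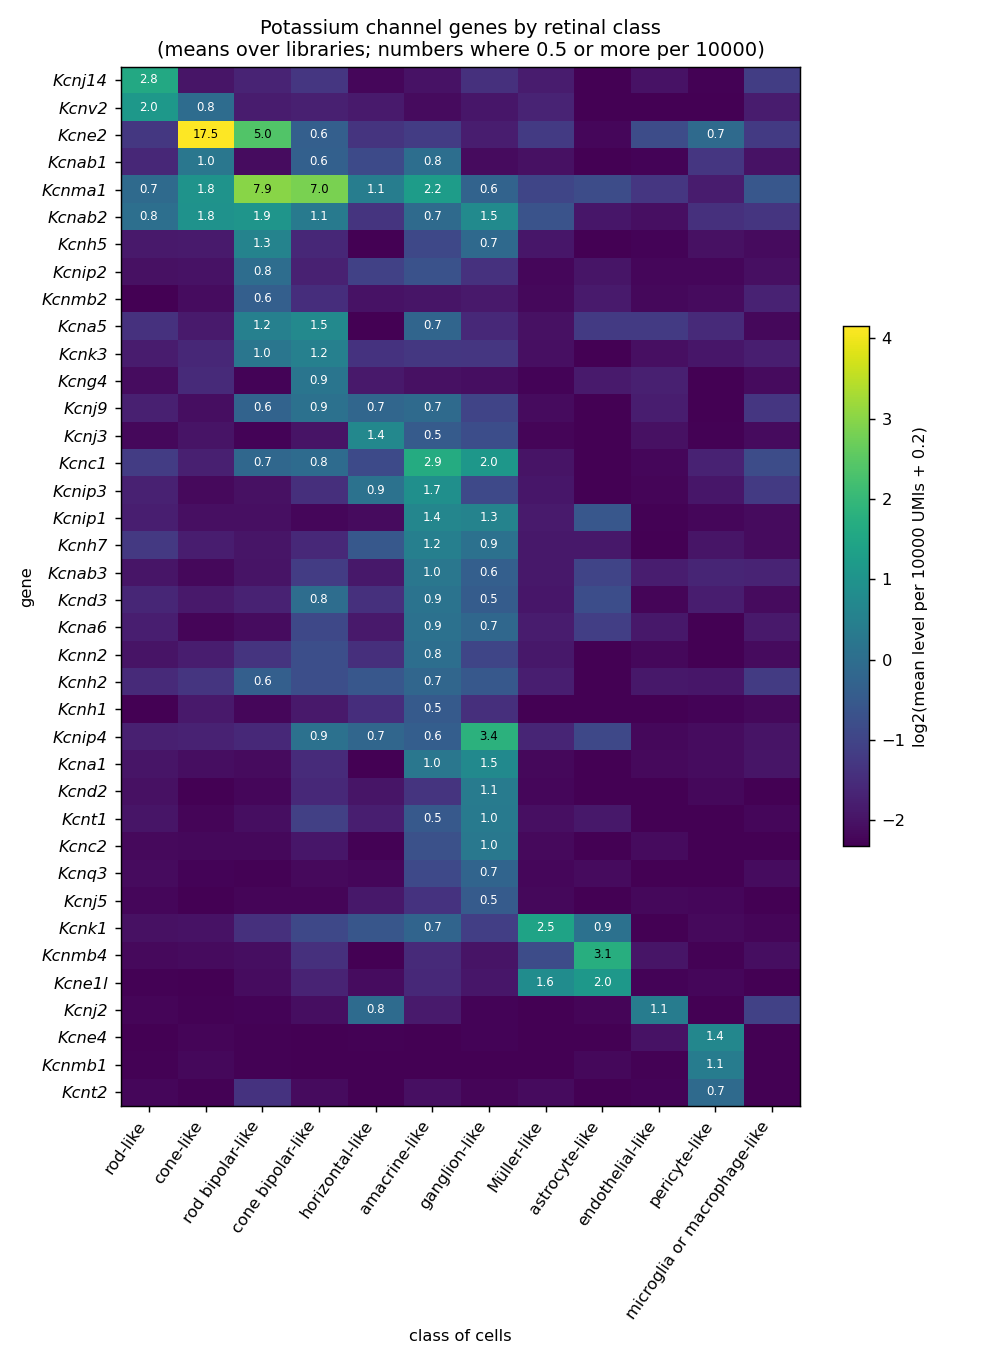
Mean level of 38 of the 41 potassium channel genes that reached 0.5 per 10000 UMIs in some class, by class; rows are genes ordered by their leading class, columns are classes, the colour is log2(mean + 0.2) and printed numbers are means of 0.5 or more. The order of rows sets the diagonal, and most genes also reach other classes; the leading means include Kcnj14 (2.8) in rod-like and Kcne2 (17.5) in cone-like cells.

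Cone-like cells were set apart by Kcne2, a single-pass accessory subunit that joins Kv, KCNQ and ERG pores. Its level there was 12.7 in the lowest, 17.4 in the median and 25.9 in the highest of 12 libraries, with a mean of 17.5 ± 3.52. Rod bipolar-like cells came second with 5.03 ± 0.95 (n = 12), and their highest library (7.27) lay below the lowest cone-like library. Rod-like cells held 0.21 ± 0.26 Kcne2 (n = 8) and amacrine-like cells 0.24 ± 0.24 (n = 12), so the high level did not extend to the neighbouring photoreceptor class. The gene lies at chr16:92292389-92298129 (GRCm38, plus strand), and no coding gene overlaps it. The Kvβ subunit Kcnab1 was the other member that cone-like cells led, at 0.98 ± 0.54, from 0 to 1.79 over 12 libraries. Amacrine-like cells held 0.80 ± 0.44, and cone-like cells did not lead from summed UMIs or with cells thinned to 300 UMIs.

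Rod-like cells led for 3 members, among them a silent Kv subunit and an inward rectifier. Kcnv2, the silent subunit Kv8.2 of photoreceptors, had 1.98 ± 0.77 in rod-like and 0.78 ± 0.36 in cone-like cells. Kcnj14, the inward rectifier Kir2.4, was highest in rod-like cells in each of 8 libraries. It ranged from 1.63 to 5.79 there with a mean of 2.79 ± 1.47, against 0.06 ± 0.07 in cone-like cells. The second class for Kcnj14 was microglia or macrophage-like (0.25 ± 0.45, n = 7), where its highest libraries were the OIR whole-retina libraries at P17, in which the 8 rod markers summed to 45.4 and 101 per 10000 in these cells, against 0.41 to 7.53 in the other 5 libraries. The part of rod RNA in that level was not tested.

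**Figure D2:**
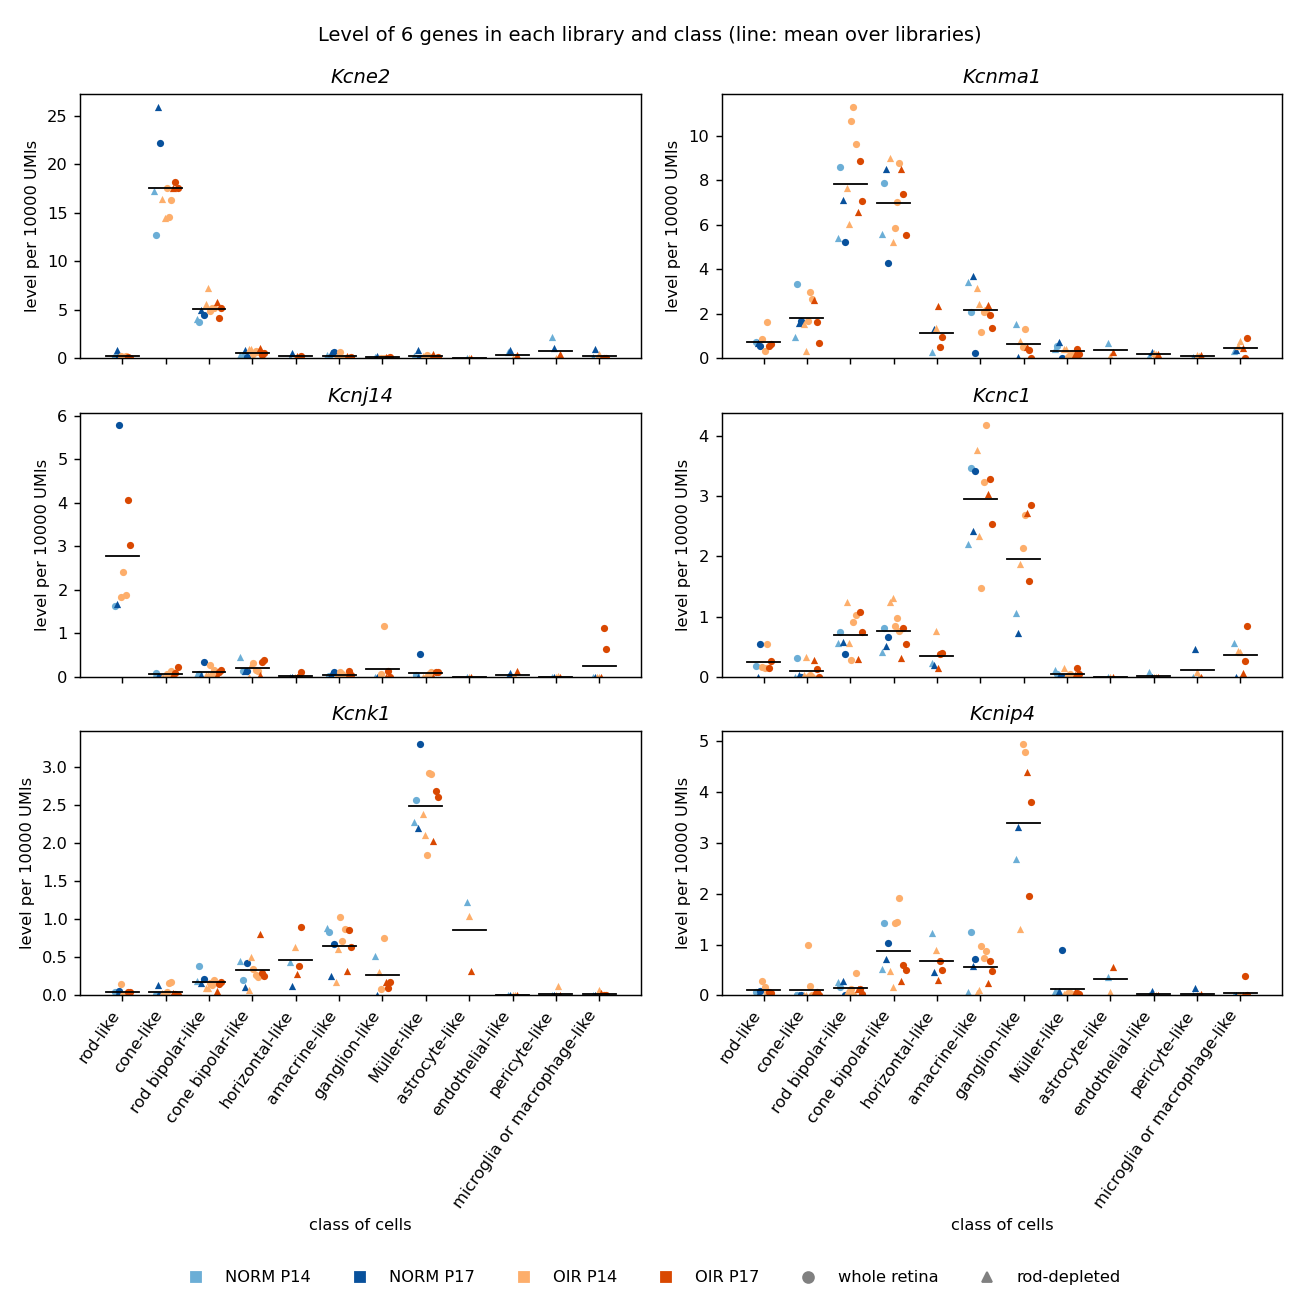
Level per 10000 UMIs of 6 genes in each library (points: colour for oxygen and day, shape for fraction) and class, with the mean over libraries as a line; the genes were chosen after their values were seen. Kcne2 in cone-like, Kcnj14 in rod-like and Kcnk1 in Müller-like cells stand clear of the second class in every library, while Kcnma1 and Kcnc1 overlap between their leading classes, and Kcnip4 is highest in ganglion-like cells.

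Bipolar cells shared Kcnma1, the BK pore subunit. Its level was 5.25 to 11.3 in rod bipolar-like cells (mean 7.86 ± 1.99, n = 12) and 6.97 ± 1.61 in cone bipolar-like cells (n = 12), with overlapping libraries. Amacrine-like cells were next with 2.18 ± 0.97 (n = 12). Within the cone bipolar-like class, cluster 15 (led by Igfn1) carried Kcnma1 at 15.9 ± 4.08 over 7 libraries, from 11.7 to 22.6, while cluster 4 carried 4.84 ± 1.36 over 12 libraries, from 2.90 to 7.45. The 2 clusters did not overlap in any library.

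Kcna5 (Kv1.5) and Kcnk3 (the acid-sensitive leak channel TASK-1) overlapped between both bipolar classes. Kcnk3 had 1.20 ± 0.29 in cone bipolar-like and 0.97 ± 0.30 in rod bipolar-like cells. Kcna5 had 1.45 ± 0.31 in cone bipolar-like and 1.22 ± 0.50 in rod bipolar-like cells. Rod bipolar-like cells led for Kcnab2 (a Kvβ subunit, 1.89 ± 0.48), Kcnh5 (an EAG pore, 1.28 ± 0.60), Kcnip2 (a KChIP, 0.79 ± 0.32) and Kcnmb2 (a BK β subunit, 0.58 ± 0.25). Kcnab2 was close to this in cone-like cells (1.75 ± 0.30), and rod bipolar-like cells were highest for it in 7 of 12 libraries. For Kcnip2, rod bipolar-like cells did not lead with cells thinned to 300 UMIs. Cone bipolar-like cells led for Kcng4 (0.94 ± 0.58), a silent Kv subunit. The G-protein-gated inward rectifier Kcnj9 was spread over classes, with 0.87 ± 0.34 in cone bipolar-like cells, highest there in 3 of 12 libraries, and 0.74 ± 0.35 in amacrine-like cells. Kcng4 was found mainly in cluster 4, at 1.79 ± 0.94 over 12 libraries. The A-type pore Kcnd3 and its partner Kcnip4 were both high in cone bipolar-like cluster 14 (led by Otor and Grik1). There Kcnd3 had 3.26 ± 1.27 and Kcnip4 4.58 ± 1.65 over the same 6 libraries.

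**Figure D3:**
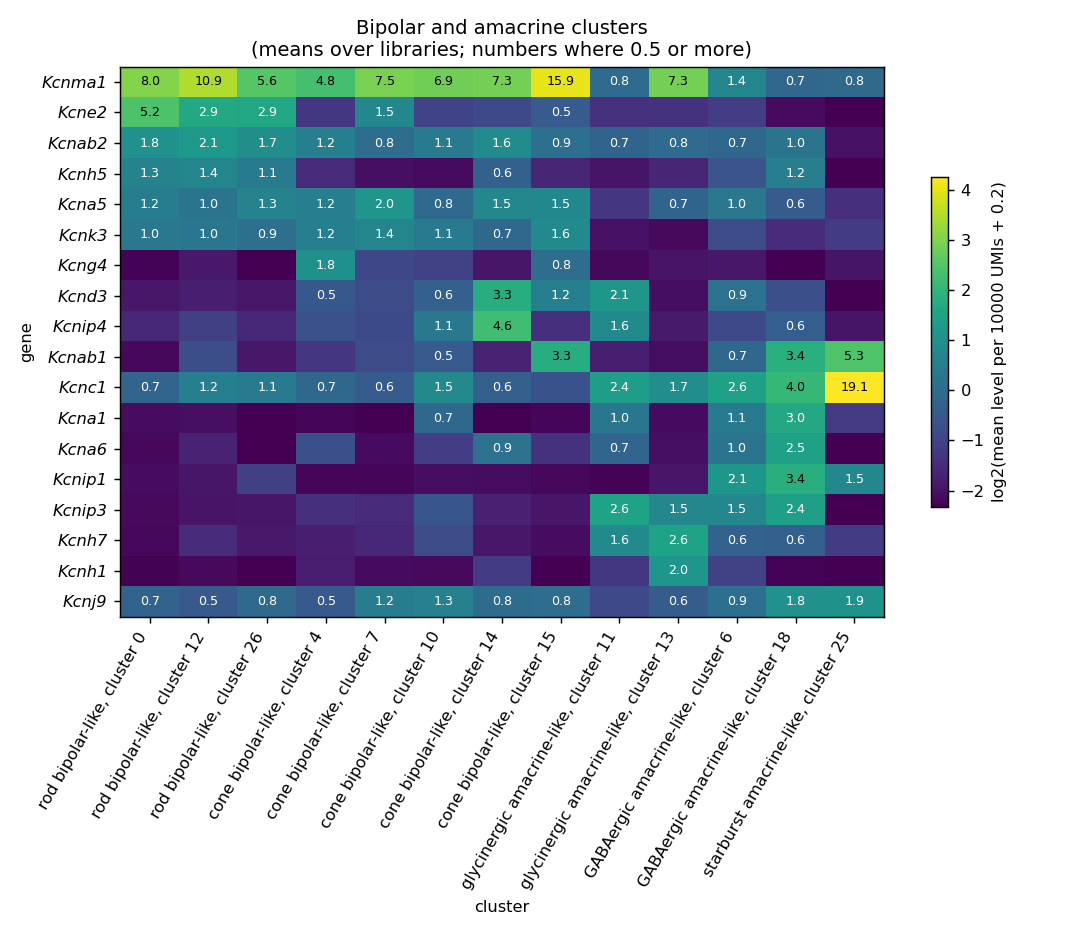
Mean level of 18 potassium channel genes in the bipolar and amacrine clusters; rows are genes, columns are clusters with the class they took, the colour is log2(mean + 0.2) per 10000 UMIs and printed numbers are means of 0.5 or more. The genes were chosen after their values were seen. Kcnc1 reaches 19.1 in the starburst amacrine-like cluster 25, and Kcnma1 15.9 in cone bipolar-like cluster 15.

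Amacrine-like cells led for 10 members. Kcnc1 (Kv3.1), a pore that supports fast firing, was 1.48 to 4.18 there with a mean of 2.95 ± 0.76, and 1.96 ± 0.79 in ganglion-like cells (n = 8), which overlapped. The starburst amacrine-like cluster 25, with at least 20 cells in 2 libraries, held Kcnc1 at 12.5 in NORM whole retina and 25.6 in OIR whole-retina replicate 3, both at P14. It also held the Kvβ subunit Kcnab1 at 5.58 and 5.00 in the same libraries. GABAergic amacrine-like cluster 18 carried Kcna1 (2.98 ± 1.13), Kcna6 (2.51 ± 1.67) and Kcnip1 (3.39 ± 1.20), all over 5 libraries. Glycinergic amacrine-like cluster 13 carried the EAG pore Kcnh1 (2.0 ± 0.82) and the ERG pore Kcnh7 (2.62 ± 0.49) and also Kcnma1 at 7.26 ± 2.12, each over 9 libraries. Kcnma1 was 0.79 ± 0.52 in the other glycinergic cluster, 11, over 11 libraries. Kcnip3, a KChIP, was 1.67 ± 0.59 in the amacrine-like class as a whole.

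Ganglion-like cells led for 8 members, most of them pores of Kv and KCNQ channels. Kcnip4 was 1.31 to 4.95 over 8 libraries (mean 3.40 ± 1.34), and it was higher in ganglion-like cells than in any other class in each of these 8 libraries. The KCNQ pore Kcnq3, a carrier of the M current, had 0.65 ± 0.35. Kcna1 (Kv1.1) had 1.48 ± 0.87, Kcnd2 (an A-type pore) 1.10 ± 0.55, Kcnt1 (a sodium-activated channel) 1.05 ± 0.43 (1.73 when thinned to 300 UMIs) and Kcnc2 (Kv3.2) 0.99 ± 0.64. Kcnd2 was also highest in this class in 8 of 8 libraries. In horizontal-like cells the G-protein-gated rectifier Kcnj3 led with 1.42 ± 0.70 over 6 libraries, against 0.52 ± 0.15 in amacrine-like cells.

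Glia and vessel cells used few members. Müller-like cells carried the two-pore-domain channel Kcnk1 (TWIK-1) at 1.85 to 3.30 over 12 libraries, with a mean of 2.48 ± 0.43. Their lowest library lay above the highest astrocyte-like library (1.22). Müller-like and astrocyte-like cells shared Kcne1l, an older name of Kcne5, at 1.56 ± 0.74 (n = 12) and 1.97 ± 0.48 (n = 3). Astrocyte-like cells held the BK β subunit Kcnmb4 at 1.72, 3.60 and 3.98 in their 3 libraries, against 0.37 ± 0.15 in Müller-like cells. With every cell thinned to 300 UMIs the astrocyte-like means were 1.24 for Kcnmb4 and 1.20 for Kcne1l. Endothelial-like cells led for the strong inward rectifier Kcnj2, from 0.21 to 2.51 over 5 libraries (mean 1.11 ± 0.86). Pericyte-like cells carried the accessory subunit Kcne4 (1.38 ± 0.53) and the BK β subunit of smooth muscle, Kcnmb1 (1.11 ± 0.31), in all 5 libraries. Kcnmb1 at chr11:33963013-33973641 lies inside Kcnip1 on the opposite strand, and whether reads were counted by strand is not known here. The level of Kcnip1 in pericyte-like cells was 0.02 ± 0.03 (3 UMIs in 5 libraries). Thinned to 300 UMIs, Kcnmb1 was 1.73 in pericyte-like cells.

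Most members below the threshold were rare rather than absent. Counted over libraries with at least 20 cells of a class, with the lens-like cluster left out, 3 members had no UMI (Kcng3 and 2 rows of Kcnq1ot1). The KCNQ pore Kcnq1 had 0.40 ± 0.31 in endothelial-like cells (32 UMIs). Of the silent Kv subunits, Kcnv2 and Kcng4 passed the threshold.

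Oxygen and day were then tested within each class with limma, in a model with oxygen, day and fraction as terms. Genes needed a mean of 0.2 per 10000, which 53 members met in at least 1 class and 38 in none. For OIR against NORM, 0 of 161 pairs of member and class passed an adjusted p of 0.05, while 0.242% of 80099 gene and class pairs did. At an unadjusted p of 0.05, 18 of the 161 passed (11.2%), beside 10.6% of all pairs. The median log2 difference of the members was 0.15, with 99 of 161 above 0, and that of all genes was 0.06. For P17 against P14, 0 of 161 member pairs passed, beside 0.107% of all pairs. At an unadjusted p of 0.05, 17 passed (10.6%), beside 9.44% of all pairs. Self-tests on simulated counts of rod bipolar-like cells recovered 60.2% of 2-fold and 100% of 4-fold changes, so smaller shifts in the members may not be detectable. The simulation used the 12 libraries of that class, with a fixed spread between libraries that was not taken from the members. Classes with fewer libraries, such as pericyte-like cells with 5, were not simulated. Recovery of 4-fold changes can therefore not be carried over to the members or to other classes.

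The members with the smallest p-values for oxygen were in pericyte-like cells, with 2 NORM and 3 OIR libraries, all rod-depleted. Kcne2 had 2.14 and 1.04 in NORM at P14 and P17, and 0, 0.03 and 0.46 in the OIR libraries. Kcnt2, a sodium-activated channel, had 2.05 and 1.10 in NORM, and 0.04, 0.03 and 0.48 in OIR. Both NORM libraries lay above the 3 OIR libraries for both genes, but on few molecules: 12 UMIs of Kcne2 and 9 of Kcnt2 in NORM. The log2 differences were -2.36 ± 0.63 (SE) for Kcne2 (limma, adjusted p = 0.0508, 2 residual degrees of freedom) and -2.27 ± 0.62 for Kcnt2 (adjusted p = 0.0552), just outside the threshold. Without the filter on low values both passed (adjusted p = 0.028 and 0.036), and without Scrublet's doublet calls Kcne2 passed (adjusted p = 0.045). In this class 1.23% of 6893 genes passed. The summed level of the 8 cone markers in pericyte-like cells was 5.9 and 17.0 in NORM and 3.1, 1.1 and 6.1 in OIR. The 12 genes of rod RNA summed to 6.56 and 13.0 in NORM and to 0.96, 0.92 and 3.91 in OIR, without overlap, and 1 of them, Gngt1, fell (-2.27 ± 0.55, adjusted p = 0.026). Mitochondrially encoded RNA summed to 227 and 195 in NORM and 157, 176 and 102 in OIR, and 1 of 8 genes tested, Mt-cytb, fell (-0.79 ± 0.21, adjusted p = 0.042). Pericyte-like cells held 1300 and 1315 UMIs per cell in NORM and 3010, 3293 and 2752 in OIR. The part of these in the differences was not tested. Kcne4 and Kcnmb1, the members that mark pericyte-like cells, overlapped between oxygen groups.

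Further members with small p-values did not pass. Kcne2 in cone bipolar-like cells was 0.34, 0.14, 0.87 and 0.09 in the 4 NORM libraries (P14 rod-depleted and whole, then P17 in the same order) and 0.30 to 1.08 in OIR, a log2 difference of 0.92 ± 0.26 (adjusted p = 0.28), and 1.16 ± 0.35 at P14 (adjusted p = 0.85). Kcnh5 in ganglion-like cells was 0.21 and 0.07 in the 2 NORM libraries and 0.29 to 1.98 in the 6 OIR libraries, which did not overlap. Its log2 difference was 2.13 ± 0.69 (adjusted p = 0.22), on 4 and 1 UMIs in NORM, and 2.47 ± 0.80 at P14 (adjusted p = 0.29).

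For day, Kcnj14 in rod-like cells was 1.63 to 2.42 in the 4 P14 libraries. At P17 it was 1.67 and 5.79 in NORM, rod-depleted and whole, and 4.06 and 3.03 in OIR. The rod-depleted value rests on 3 UMIs, and every whole-retina P17 library lay above every P14 library. The class was made of different clusters: cluster 3 held 91.8% of rod-like cells in OIR whole retina at P17, 0.49% in NORM whole retina at P17, and 3.18% and 6.53% in NORM and OIR whole retina at P14. Within cluster 1, Kcnj14 was 1.56 to 2.04 at P14, and at P17 1.71 and 5.82 in NORM and 3.62 and 1.76 in OIR, which overlapped. The stress genes Egr1 (-2.39 ± 0.26, adjusted p = 0.0087) and Jun (-1.89 ± 0.23, adjusted p = 0.0093) fell with day in rod-like cells; their part was not tested. The day difference of Kcnj14 was 1.02 ± 0.26 (adjusted p = 0.19). Without the 2 OIR whole-retina libraries at P17, a choice made after seeing the data, it was 1.71. That value compares NORM whole retina alone, with 1 library at each day, because the fraction term takes up the only rod-depleted library of the class. Kcnj9 in rod bipolar-like cells was 0.10 to 0.72 at P14 and 0.59 to 1.07 at P17 (0.80 ± 0.26, adjusted p = 0.19). Kcnma1 in ganglion-like cells was 0.52 to 1.53 at P14 and 0 to 0.50 at P17 (-1.60 ± 0.51, adjusted p = 0.26). These 2 genes differed in how the days met: the ranges of Kcnj9 overlapped, while those of Kcnma1 did not. Kcng4 in cone bipolar-like cells was 0.73 to 2.04 at P14. At P17 it was 0.34 and 0 in NORM, 0.30 in rod-depleted OIR, and 1.13 and 1.18 in whole-retina OIR. The day difference was -1.01 ± 0.38 (adjusted p = 0.27), and it was -2.07 (adjusted p = 0.0091) without those 2 libraries. Jun also fell with day in this class (-1.31 ± 0.24, adjusted p = 0.013), and its part was not tested. The Kcng4 interaction was 2.10 ± 0.64 (adjusted p = 0.44).

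An oxygen effect per day could be fitted in 8 classes. At P14, 0 of 135 member pairs passed, beside 0.0643% of 59115 pairs. At an unadjusted p of 0.05, 13 of 135 passed (9.63%), beside 4.45% of all pairs. At P17, 3 of 135 passed, all higher in OIR, beside 2.84% of 59115 pairs. For the difference between the days, the interaction, 1 of 135 passed beside 0.482% of all pairs. The median log2 difference of all genes at P17 was 0.17, and that of the members 0.37. At P17 both NORM libraries came from 1 sequencing run, and the OIR libraries came from another run or carry no run date, so run and oxygen cannot be told apart at that day in either fraction. The counts depended on which P17 libraries entered, and the share of all genes moved with them. Without NORM rod-depleted at P17, 21 of 95 member pairs (22.1%) passed for P17 beside 20.7% of all pairs, and 11 of 95 (11.6%) for the interaction beside 8.94%. Without NORM whole retina at P17, 1 of 127 passed for P17 (0.787%) beside 0.83%. Without the 2 OIR whole-retina libraries at P17, 0 of 85 passed beside 0.0269%. The lists that track cell state and handling moved at P17 as well. Of 70 stress gene pairs 12 rose and 0 fell, and of 64 mitochondrially encoded pairs 0 rose and 10 fell. Of 94 pairs of rod RNA 1 rose and 13 fell. These 94 include rod-like cells themselves, where Nrl rose and Pde6g and Rcvrn fell. The remaining calls of rod RNA, all lower in OIR, were in other classes. The part of these lists in the member calls was not tested.

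Ganglion-like cells at P17 had a single NORM library, of 28 cells and 39738 UMIs. There the 8 cone markers summed to 23.2 and the ganglion markers to 103, beside 0.16 to 3.93 and 137 to 196 in the other 7 libraries; the part of this in the results was not tested. Kcnc2 (Kv3.2) was 0.87 in NORM at P14 and 0.06 at P17 (1 UMI), and 0.57 to 1.42 in OIR at P14 and 1.0 to 2.17 at P17. Its interaction was 2.75 ± 0.93 (limma, adjusted p = 0.11). The ERG pore Kcnh2 was 1.15 in NORM at P14 and had 0 UMIs at P17, where a count of 0 allows up to 0.755 per 10000 (3 UMIs). OIR at P17 held 0.349 (14 UMIs), under that limit, so no fold is given. In ganglion-like cells 25 of 28 members tested had a positive P17 difference, with a median of 0.98 beside 0.36 for all 7904 genes, all against that single NORM library.

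Of the members with the smallest p-values at P14, Kcne1l in Müller-like cells could be read within runs. It was 2.79 and 2.91 in NORM (rod-depleted and whole), 2.01 and 1.67 in rod-depleted OIR, and 0.49, 1.05 and 0.89 in whole-retina OIR. Every OIR library lay below both NORM libraries. On the run shared by NORM and OIR replicate 2, both rod-depleted, the values were 2.79 and 1.67, and on the run shared by NORM and OIR replicate 1, both whole retina, 2.91 and 0.49. The log2 difference at P14 was -1.19 ± 0.37 (adjusted p = 0.86). With sequencing run in place of day as a term, the OIR difference was -1.42 (limma, adjusted p = 0.030). Only the pairs on these shared runs inform that value, so it restates them and takes nothing from P17. At P17 the values were 1.16 and 1.91 in NORM and 1.18 to 1.51 in OIR, which overlapped.

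**Figure D4:**
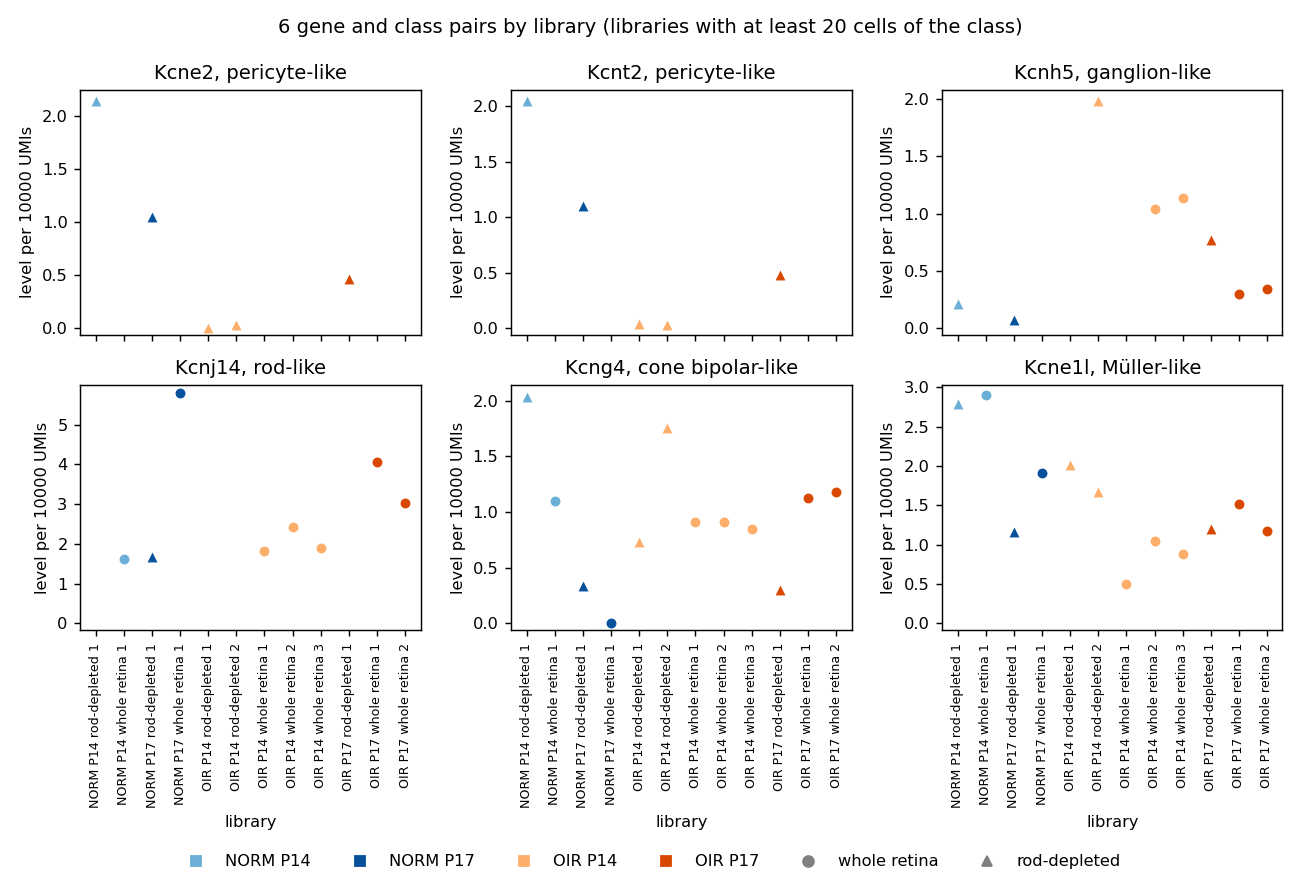
Level per 10000 UMIs of 6 gene and class pairs in each library (x axis; colour for oxygen and day, shape for fraction), with a separate y axis for each; the pairs were chosen after their values were seen. Kcne2 and Kcnt2 in pericyte-like cells are higher in both NORM libraries (2.14 and 1.04, 2.05 and 1.10) than in the OIR libraries, and Kcne1l in Müller-like cells is highest in NORM at P14 (2.79 and 2.91).

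The rest of that group did not pass. Kcnip2 in rod bipolar-like cells was 1.02 and 1.52 in NORM and 0.37 to 0.99 in OIR at P14, without overlap (-0.79 ± 0.30, adjusted p = 0.67). At P14 the class was made of different clusters: cluster 0 held 94.2% of it in NORM whole retina and 38.1% in OIR whole retina, where cluster 12 held 56.4%. Within cluster 0, Kcnip2 was 1.05 and 1.47 in NORM and 0.47, 0.50, 0.81, 0.82 and 1.0 in OIR, which did not overlap. Within the shared runs it was 1.02 against 0.89 and 1.52 against 0.49. Kcnip1 in ganglion-like cells was 0.38 in the single NORM library and 0.86 to 1.79 in OIR at P14 (1.87 ± 0.67, adjusted p = 0.32).

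By role, most lists leaned to higher values in OIR by their medians without a call, and the median of all genes was 0.06. The Kv pore subunits had a median log2 difference of 0.20 over 45 pairs, with 31 above 0, and the calcium- and sodium-activated channels 0.25 over 20 pairs, with 16 above 0. The Kv accessory subunits had -0.09 over 39 pairs, with 15 above 0. In the 8 classes fitted per day, the medians of these lists in that order were -0.03, -0.16 and -0.09 at P14. At P17, where run and oxygen cannot be told apart, they were 0.47, 0.56 and -0.14. All genes had -0.02 at P14 and 0.17 at P17. None of these lists held a call for oxygen or for day in the fit over both days.

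Other genes of the ion balance gave few calls for oxygen. Of 108 pairs of sodium pump subunits and cation carriers, 0 rose and 2 fell, among them the pump subunit Atp1b2 in pericyte-like cells (-1.49 ± 0.34, adjusted p = 0.015). Of 121 pairs of sodium and calcium channel subunits, 0 rose and 1 fell, Cacna2d3 in pericyte-like cells (-2.17 ± 0.57, adjusted p = 0.044). For day, Cacna2d3, a calcium channel accessory subunit, rose in cone bipolar-like cells (1.45 ± 0.24, adjusted p = 0.0057), the single call among the 121. The 28 pairs of HCN and CNG channels and the 65 pairs of potassium channel partners held no call for oxygen or for day. Among the lists that track cell handling, 1 stress gene pair of 98 rose and 1 fell for oxygen, and 0 rose and 4 fell for day, among them Atf3 in Müller-like cells (-2.02 ± 0.39, adjusted p = 0.043). Of 118 pairs of rod RNA, rod-like cells included, 0 rose and 1 fell for oxygen, and 5 rose and 0 fell for day. Of 88 mitochondrially encoded pairs, 0 rose and 1 fell for oxygen.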

How the data were processed

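Drop-seq libraries of mouse retina were analysed. Per the submitters' processing notes, bcl2fastq and STAR 2.4.0 were used with build mm10 or GRCm38; no source used here gives the counter or strand setting. The authors deposited natural log values, ln(1 + UMIs per 10000), from which whole UMI counts were recovered (100% of non-zero values within 0.05 of a whole UMI). Of 31271 columns, 5799 in 7 sets matched no library and were not used. 14 barcodes occurred in more than 1 library. Total UMIs were 36182149, and depth per cell limits rare members.

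Cells with at least 200 genes were clustered without KCN symbols (scanpy 1.11.5, leidenalg 0.10.2, 2000 variable genes, 30 components, 15 neighbours, resolution 1.0) and named from 20 marker lists. Scrublet called 0.425% to 1.90% of cells per library, which were kept. Means per class and library (at least 20 cells) were tested on log2(mean + 0.2) with limma 3.58.1 in R 4.3.3, for genes with a mean of at least 0.2 that were above 0 in at least 3 libraries, with Benjamini-Hochberg adjustment within a class. Each fold change is on that scale and understates low genes. Members and lists were chosen with earlier results of these data known. Named members were those with an adjusted p below 0.05, or the 5 smallest p where a test called fewer than 3, and the 5 highest by class; some are not reported here.

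Alternatives were the pseudocount, no filter, summed UMIs, thinning, at least 50 cells, doublet calls left out, other clusterings, adjustment over all classes, sequencing run, a replicate block and each library left out. The fit was tested on simulated data.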

Additional observations from a re-analysis of the deposited data

How the results depend on the processing

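Of the single members' values under alternatives, 633 kept their direction and side of the threshold, 9 gained a call, 19 lost one and 4 levels moved; none reversed. Of the counts, 109 stayed within 1.5 times and 28 moved. For OIR the count of member calls was 0. It was 2 with no filter on low values (0.302% of member pairs beside 0.0851% of all pairs). It was 1 without Scrublet's calls (0.625% beside 0.281%) and 1 with sequencing run as a term (0.813% beside 0.195%). With run as a term, only P14 libraries on runs shared by NORM and OIR inform the oxygen difference. Leaving out a library gave 0 to 2, at most 1.23% beside 1.53%. For day the count was 0, and 0 to 1 leaving out a library (0.613% beside 0.095% or 0.218%). For the interaction it was 1, and 2 with a pseudocount of 0.05, 11 with no filter, 0 adjusted over all classes, and 0 to 11 leaving out a library. For OIR at P14 it was 0, and 4 with no filter (0.762% beside 0.625%). For OIR at P17 it was 3, and 9 with no filter, 6 from summed UMIs, and 1 to 21 leaving out a library. As shares of member pairs beside all pairs, the main fit gave 0.741% beside 0.482% for the interaction and 2.22% beside 2.84% for P17. For the interaction, a pseudocount of 0.05 gave 1.48% beside 0.795%, and no filter 2.1% beside 1.51%. For P17, no filter gave 1.71% beside 1.33%, and summed UMIs 4.65% beside 2.84%. With no filter, 0 of the calls made with the filter were held for P17 (8 of the 9 were in microglia or macrophage-like cells) and 0 for the interaction (10 of the 11 there). Without both whole-retina OIR libraries at P17, an alternative chosen after seeing the data, the counts were 2 for day, 0 for the interaction and 0 for P17. The 2 for day were 1.34% of member pairs beside 0.457% of all pairs, and 1 of them, Kcnj14 in rod-like cells, rests on 1 whole-retina library per day. The cause of these moves was not tested. NORM groups hold 1 library each, so whether replicate numbers pair the libraries could not be checked; with the replicate block the count was 0 of 85 for the interaction and 1 for P17. P17 differences in rod-like cells cannot be estimated without NORM whole retina at P17. The class with the highest level was the same for 37 of 41 members from summed UMIs and for 37 when thinned, and for 40 to 41 leaving out a library.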

Other observations

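One cluster took no class from the marker lists. Its 270 cells were led by Optc, Crhbp and Ttr, and it held most of the UMIs of Kcnj13, the inward rectifier Kir7.1. Of all Kcnj13 UMIs, 178 (84.4%) were in this cluster, at 2.76 per 10000, and 33 in the other cells, at 0.00934 per 10000. In the 5 libraries with at least 20 of these cells, all rod-depleted, Kcnj13 was 1.14 in NORM and 2.73 and 3.40 in OIR at P14, and 3.02 in NORM and 2.77 in OIR at P17. Oxygen groups overlapped. Kcnk1 was 2.96 per 10000 there and 0.576 in the other cells pooled, but Müller-like cells held a similar level, 2.48 ± 0.43 as a mean over 12 libraries. Kcnj13 overlaps the coding gene Gigyf2 in the annotation.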
